A study of Homo sapiens with 6 samples.

Results

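The lysosome and autophagy genes described here are 38 named genes that encode lysosomal enzymes, lysosomal membrane proteins, subunits of the vacuolar proton pump (V-ATPase), a pair of transcription factors that drive lysosomal genes, and proteins of autophagy. They were chosen by name, with earlier results of these data known, so their shares called are a description and no independent test. Each gene was read from the transcript cluster of the array (a set of probes for 1 transcribed locus) that carried its symbol alone and had the highest mean over 6 arrays. Of the 38 genes, 35 had a log2 signal of at least 5 on 2 or more arrays and were tested among 24721 transcript clusters that passed the same filter. All 35 were at or above 5 on every array, with signals from 5.35 to 11.64, so none of them passed through 1 group alone. TFEB, a master transcription factor of lysosomal genes, was at 4.29 to 4.39 on all arrays and was not tested. GLB1, the lysosomal beta-galactosidase, and NPC2, a lumenal cholesterol carrier, lay on clusters that carry several symbols and were not analysed here.

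The study used HCT116, an established human colon cancer cell line, to ask how gene expression changes when the long noncoding RNA H19 is targeted by RNA interference. Cells received a control siRNA, labelled si(-), or 1 of the H19 siRNAs, siH19-1 and siH19-2. Every culture, the controls included, was transfected with 50 nM siRNA by lipid reagent and harvested at 48 h. Each of the 3 groups had 2 arrays from cultures labelled as biological replicates. The p-values rest on the spread between 2 cultures a group, pooled over the 3 groups and drawn toward that of clusters of similar signal. They do not measure the spread of the compared cultures alone. The H19 cluster, which carries more than 1 symbol, read 4.82 and 5.02 with control siRNA, 4.90 and 4.99 with siH19-1, and 4.95 and 5.02 with siH19-2. Its mean change with both siRNAs was 0.05 on the log2 scale (95% interval -0.20 to 0.29, limma adjusted p = 0.822), so the arrays give no check of the knockdown and every direction below rests on the labels. Arrays of the same group correlated at 0.9925 to 0.9945 over all clusters and arrays of different groups at 0.9744 to 0.9873. Of 9 epithelial marker genes 7 passed the filter, and VIL1 and CDX2 were below it. The log2 of the summed signal of all 9 was 14.27 to 14.58 in the controls, 14.76 to 14.93 with siH19-1 and 14.79 to 14.83 with siH19-2. The strongest gene, KRT8 (mean 13.8), weighs most in that sum. The median log2 signal of the 9 was 9.36 to 9.64, 9.46 to 9.77 and 10.48 to 10.90 in the same order. None of 7 macrophage markers passed, and the log2 of their summed signal was 6.46 to 6.63, 6.60 to 6.61 and 6.63 to 6.66 in the same order. The filter was also passed by 0 of 6 lymphocyte, 0 of 5 endothelial and 1 of 6 fibroblast markers.

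The lysosome is the acidic compartment in which cells break down proteins, lipids and sugars. The V-ATPase acidifies its lumen, membrane proteins such as LAMP1 and LAMP2 line it, and enzymes reach it through the mannose 6-phosphate sorting route. Autophagy delivers cytoplasm to it: a kinase and lipid kinase complex starts a membrane, a conjugation machinery attaches proteins of the ATG8 family to that membrane, receptors link cargo to them, and the closed vesicle fuses with the lysosome. TFEB and TFE3 bind E-box motifs in the promoters of many of these genes.

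The letters of those promoters are shown first, because some of the genes share this known regulatory motif while their signals moved in different directions. The windows ran from 250 bases before to 50 bases after each gene start, 300 bases in all, from RefSeq on GRCh38.p14, and 31 of the 38 genes had an entry. The E-box CACGTG, which reads the same on both strands, occurred in 8 of these 31 windows and in 7.26% of all 35116 windows. The longer motif TCACGTGA, which contains it and also reads the same on both strands, occurred in 5 of the 31 and in 0.98% of all windows. The 5 genes with the longer motif were ATG3, ATP6V0D1, CTSA, LAMP1 and MCOLN1. CD63, CTSD and NEU1 had the shorter one alone. Stretches around the motifs follow for the 5 genes with the longer motif and for CD63 and CTSD, whose signals passed the test in at least 1 comparison; each is written 5′ to 3′ on the strand of the gene, with every CACGTG in capitals. The ATG3 and LAMP1 stretches end with their last E-box, 1 base short of the end of a longer motif. The stretches lie at chr20:45891263-45891334, plus strand (CTSA); chr11:1763939-1764004, minus strand (CTSD); chr13:113297017-113297243, plus strand (LAMP1); chr12:55729154-55729219, minus strand (CD63); chr19:7522553-7522623, plus strand (MCOLN1); chr16:67481181-67481246, minus strand (ATP6V0D1) and chr3:112561952-112562010, minus strand (ATG3).
CTSA: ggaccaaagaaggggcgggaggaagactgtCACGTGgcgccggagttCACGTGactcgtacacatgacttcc
CTSD: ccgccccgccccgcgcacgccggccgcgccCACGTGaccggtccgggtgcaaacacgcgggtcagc
LAMP1: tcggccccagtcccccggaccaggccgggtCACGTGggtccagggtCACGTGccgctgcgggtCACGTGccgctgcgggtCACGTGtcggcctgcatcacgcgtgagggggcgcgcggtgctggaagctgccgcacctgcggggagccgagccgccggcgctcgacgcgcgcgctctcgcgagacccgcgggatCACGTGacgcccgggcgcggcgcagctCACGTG
CD63: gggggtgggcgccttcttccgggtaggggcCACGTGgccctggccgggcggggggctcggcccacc
MCOLN1: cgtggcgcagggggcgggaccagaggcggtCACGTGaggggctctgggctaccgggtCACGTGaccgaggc
ATP6V0D1: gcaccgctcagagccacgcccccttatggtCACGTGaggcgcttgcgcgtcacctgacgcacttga
ATG3: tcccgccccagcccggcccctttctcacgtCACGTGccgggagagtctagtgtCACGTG
A match of letters is a description and no evidence that a factor binds there.

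The genes did not move as 1 block. Lysosomal membrane proteins LAMP2 and CD63, the receptor SQSTM1 and the conjugation protein ATG12 rose with each siRNA, and the cathepsin CTSZ fell with each. ATP6V0A1 rose most and BECN1 fell most with siH19-2. Throughout, "rose" and "fell" are used for a limma adjusted p under 0.05 over all 24721 clusters, and changes are differences of log2 signal with the standard error (SE). How often groups of arrays fail to overlap over all clusters was not counted. Statements below that arrays lie above or below the controls therefore describe the readings and are no support for a change. In a bulk culture, less RNA per cell and fewer cells with that RNA cannot be told apart. For the mean of both siRNAs against control, 5 of 35 genes rose and 4 fell, which is 14.3% and 11.4%; of all clusters, 5.19% rose and 7.17% fell. The median change of the 35 genes was 0.24, against 0.02 over all clusters. The 24721 clusters hold 11191 distinct single symbols, so they are not a set of genes matched to the members. With siH19-1, 5 rose and 1 fell (14.3% and 2.86%), against 2.65% and 3.56% of all clusters. With siH19-2, 10 rose and 5 fell (28.6% and 14.3%), against 10.2% and 10.8% of all clusters. Both siRNAs were set against the same control arrays, so these counts are not independent of each other. The genes were chosen with earlier results of these data known, so an excess over all clusters is not an independent finding. Where 1 array is left out below, fewer clusters of the whole table were called against control as well.

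**Figure D1:**
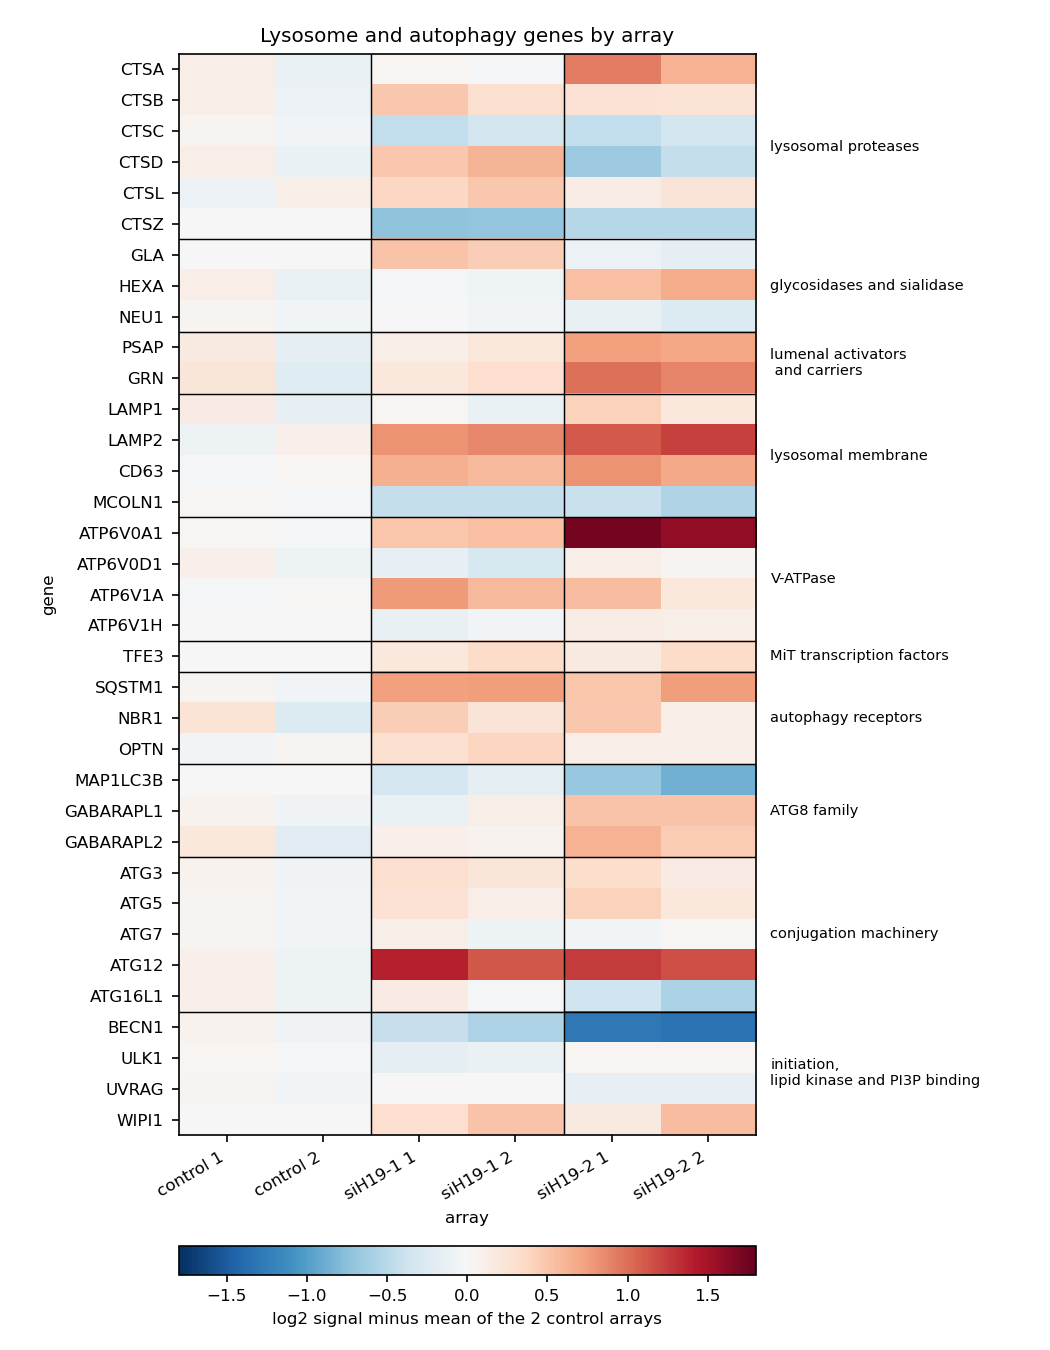
Heat map of 35 lysosome and autophagy genes (rows, ordered by role) on 6 arrays (columns). Colour is the log2 signal minus the mean of the 2 control arrays, from blue (lower) to red (higher). ATG12, LAMP2 and CD63 are red on all 4 siRNA arrays, CTSZ and BECN1 are blue on all 4, and ATP6V0A1 is darkest on the siH19-2 arrays.

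**Figure D2:**
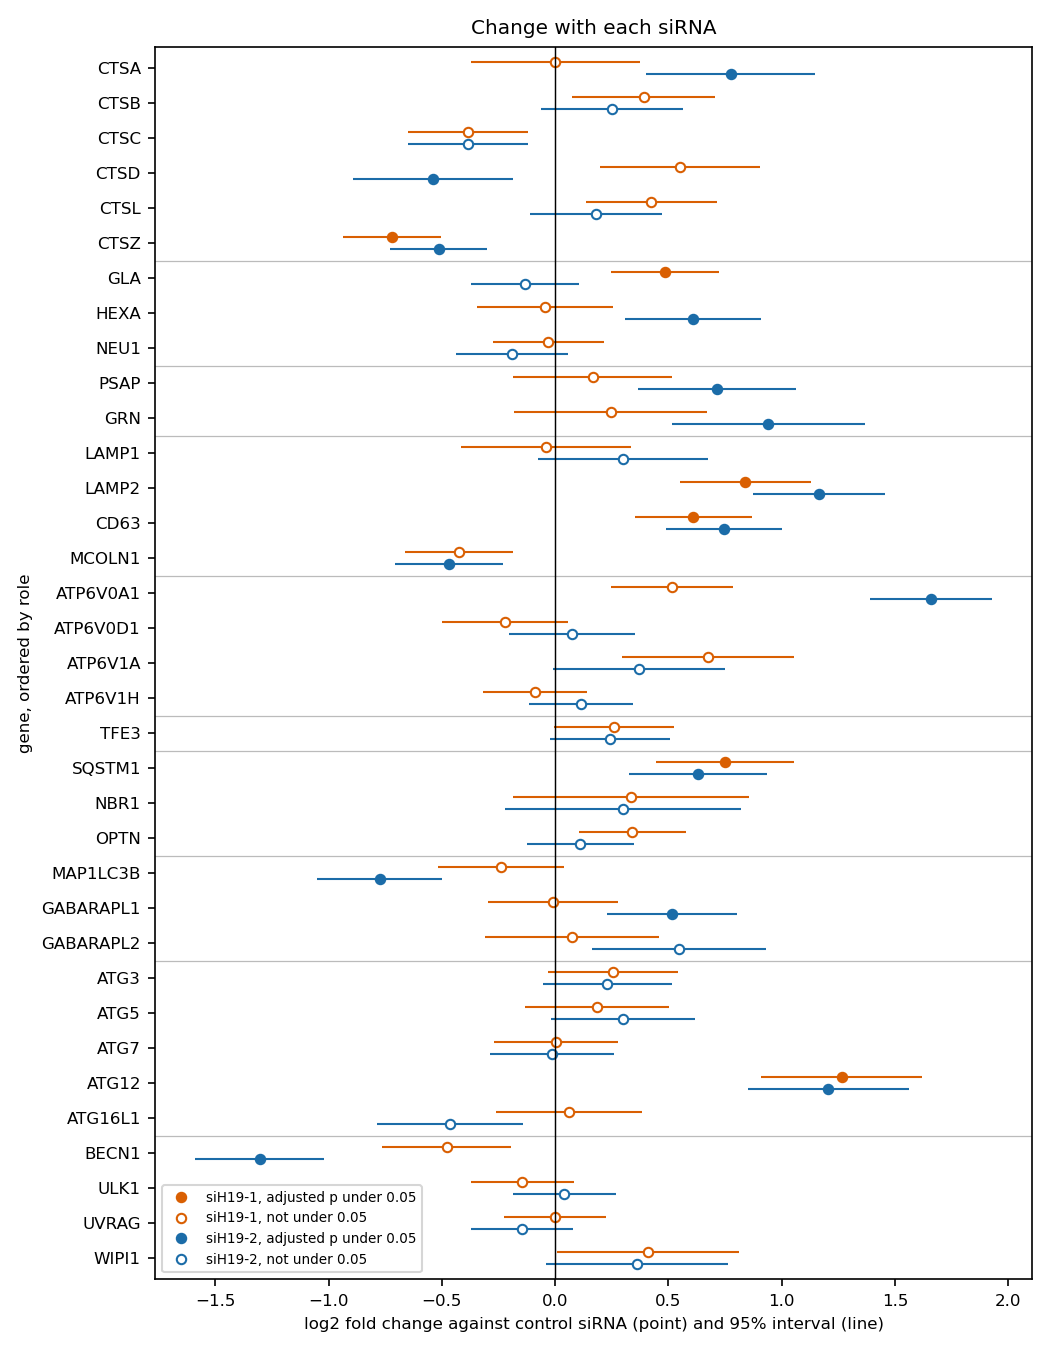
Change of each gene against control siRNA on the log2 scale (x axis) for siH19-1 (orange) and siH19-2 (blue), with 95% intervals from limma, 2 arrays a group. Filled points passed a limma adjusted p of 0.05: 6 genes with siH19-1 and 15 with siH19-2.

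Among the membrane proteins, LAMP2, a glycoprotein of the lysosomal membrane that is also required for chaperone-mediated autophagy, read 8.18 and 8.37 on the control arrays, 9.09 and 9.14 with siH19-1, and 9.38 and 9.50 with siH19-2. Every siRNA array lay above both controls. LAMP2 rose by 0.84 with siH19-1 (1.79-fold, SE 0.12, adjusted p = 0.0206) and by 1.17 with siH19-2 (2.24-fold, SE 0.12, adjusted p = 0.00424). CD63, a tetraspanin of late endosomes and lysosomes, read 7.83 and 7.89, then 8.50 and 8.44, then 8.67 and 8.54, again with no overlap. It rose by 0.61 with siH19-1 (1.53-fold, SE 0.10, adjusted p = 0.0327) and by 0.75 with siH19-2 (1.68-fold, SE 0.10, adjusted p = 0.00842). MCOLN1, a calcium channel of the lysosomal membrane with 2 long E-boxes in the stretch printed above, went the other way. It read 7.41 and 7.36 on the control arrays, 6.96 and 6.96 with siH19-1, and 6.98 and 6.85 with siH19-2, so that every siRNA array lay below both controls. MCOLN1 fell with siH19-2 (change -0.47, SE 0.10, adjusted p = 0.0244). With siH19-1 its change of -0.43 had an adjusted p of 0.0643. LAMP1, the other abundant membrane glycoprotein, with 6 E-boxes, read 9.13 and 8.84, then 9.02 and 8.87, then 9.40 and 9.17. Its changes were -0.04 (95% interval -0.42 to 0.34) and 0.30 (-0.08 to 0.68), and neither passed. The siH19-2 rise of LAMP2 held without each array in turn (highest adjusted p 0.0371), whereas its siH19-1 rise held only without the second control array. CD63 lost its siH19-2 call without the first siH19-2 array (0.0624) and its siH19-1 call without any 1 of the 6 arrays (0.0725 to 0.191). MCOLN1 lost its siH19-2 call without any 1 array (0.0591 to 0.117).

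**Figure D3:**
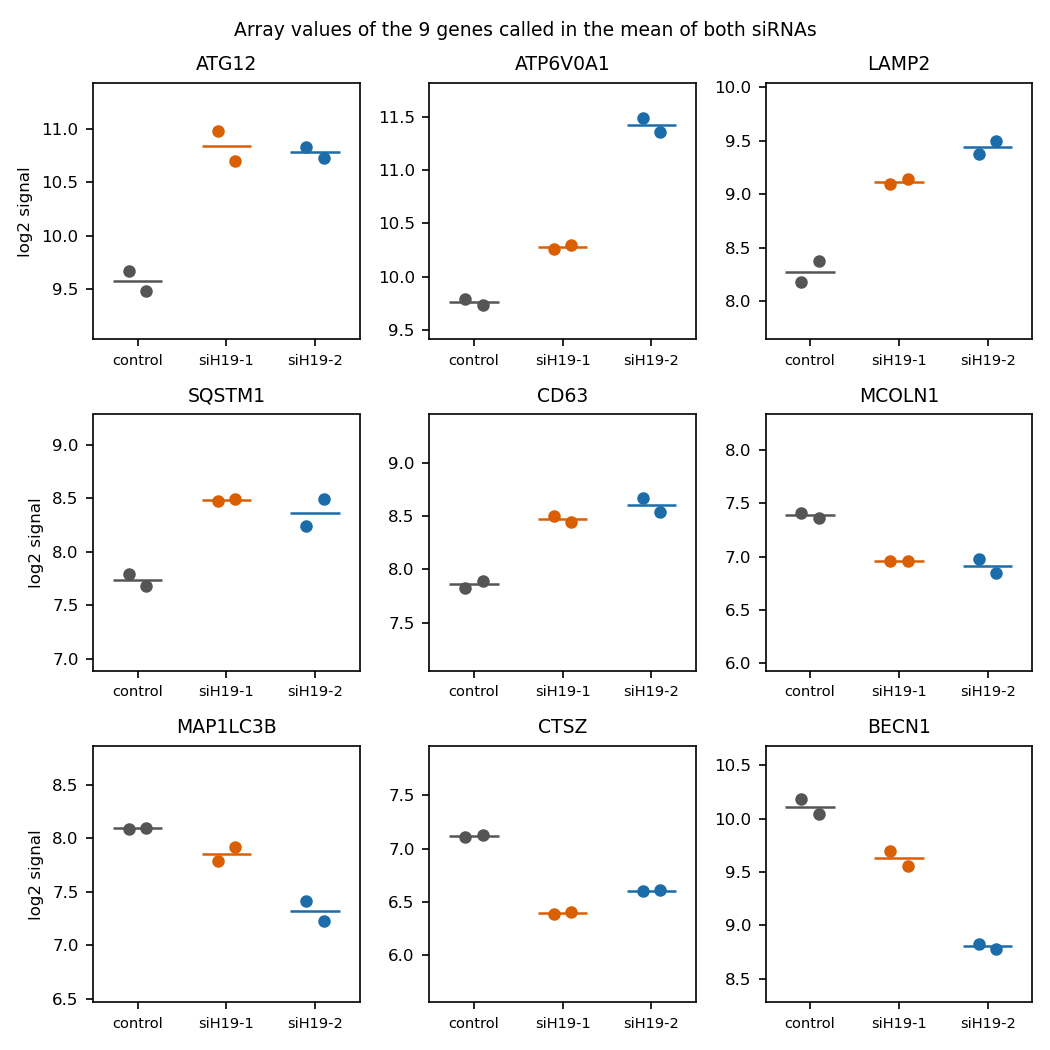
Log2 signal (y axis, a separate range of the same width for each panel) of the 9 genes that passed the test for the mean of both siRNAs, on the 2 arrays of each group (points) with the group mean (line). In all 9 panels the 4 siRNA arrays lie on 1 side of both control arrays. The panels were picked by a test on these same arrays, so this separation adds no support. BECN1, MAP1LC3B and ATP6V0A1 stand further from the controls with siH19-2 than with siH19-1.

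The 6 lysosomal proteases split. CTSZ, a carboxypeptidase also called cathepsin Z, read 7.11 and 7.13 with control siRNA, 6.39 and 6.41 with siH19-1, and 6.60 and 6.61 with siH19-2. All 4 siRNA arrays lay below the controls. It fell with siH19-1 (-0.72, SE 0.09, adjusted p = 0.0147) and with siH19-2 (-0.52, SE 0.09, adjusted p = 0.014). CTSD, the major aspartic protease of the lysosome, read 10.21 and 9.98 with control siRNA, 10.58 and 10.71 with siH19-1, and 9.44 and 9.67 with siH19-2. The siH19-1 arrays lay above both controls and the siH19-2 arrays below both. CTSD fell with siH19-2 (-0.54, SE 0.14, adjusted p = 0.0485), and its change with siH19-1 was 0.55 (adjusted p = 0.0903). CTSA, a carboxypeptidase that protects beta-galactosidase and the sialidase NEU1, read 10.38 and 10.15, then 10.30 and 10.23, then 11.19 and 10.89. Its siH19-1 arrays lay within the control range and its siH19-2 arrays above it. CTSA rose by 0.78 with siH19-2 (1.71-fold, SE 0.15, adjusted p = 0.021) and changed by 0.00 with siH19-1 (95% interval -0.37 to 0.37).

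CTSC, which activates serine proteases of granules, read 8.23 and 8.14 with control siRNA and 7.74 and 7.86 with siH19-1, and its siH19-2 arrays gave those same readings. All 4 siRNA arrays were below the controls, but its change of -0.39 with each siRNA did not pass (adjusted p = 0.107 and 0.0565). The cysteine proteases CTSB and CTSL had positive values that did not pass. CTSB had group means that differed from control by 0.39 and 0.25 (adjusted p = 0.15 and 0.224), and CTSL by 0.43 and 0.18 (0.105 and 0.336), in the order siH19-1, siH19-2. Of these proteases CTSZ lost its siH19-2 call without either siH19-2 array (highest adjusted p 0.0847), and its siH19-1 call without the first control array or either siH19-1 array (highest 0.12). The siH19-2 call of CTSA was lost without the second control array or the first siH19-2 array (highest 0.112). CTSD lost its own without any 1 array (0.0584 to 0.222).

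Among the enzymes and helpers of sugar and lipid breakdown, GLA rose with siH19-1, HEXA, PSAP and GRN rose with siH19-2, and NEU1 passed with neither. GLA, the alpha-galactosidase lost in Fabry disease, read 8.13 and 8.15 with control siRNA, 8.66 and 8.59 with siH19-1, and 8.03 and 7.98 with siH19-2. It rose by 0.49 with siH19-1 (1.40-fold, SE 0.10, adjusted p = 0.0465), and with siH19-2 its change was -0.14 (adjusted p = 0.378). HEXA, a subunit of beta-hexosaminidase, read 6.65 and 6.40, then 6.51 and 6.45, then 7.07 and 7.20. Only its siH19-2 arrays lay outside the control range; HEXA rose by 0.61 with siH19-2 (1.53-fold, SE 0.12, adjusted p = 0.0222) and changed by -0.05 with siH19-1 (adjusted p = 0.887). NEU1, the lysosomal sialidase, had values of 5.35 to 5.64 over all 6 arrays, just inside the filter, and did not pass with either siRNA. The annotation lists 8 clusters for it, and the one used lies on an alternate haplotype. PSAP, the precursor of the saposins that help enzymes reach sphingolipids, read 11.06 and 10.74, then 11.02 and 11.11, then 11.64 and 11.59. It rose by 0.72 with siH19-2 (1.64-fold, SE 0.14, adjusted p = 0.0219). GRN, which encodes progranulin, a lysosomal and secreted protein, read 9.66 and 9.21, then 9.62 and 9.74, then 10.43 and 10.32. GRN rose by 0.94 with siH19-2 (1.92-fold, SE 0.17, adjusted p = 0.0175). With siH19-1 the changes of PSAP and GRN were 0.17 and 0.25 (adjusted p = 0.582 and 0.483), and their siH19-1 arrays overlapped the controls. GLA lost its call without any 1 array (0.101 to 0.237). The siH19-2 calls were lost without either siH19-2 array for HEXA, PSAP and GRN (highest 0.106, 0.119 and 0.103). HEXA also lost its own without the second control or the second siH19-1 array, and PSAP without either siH19-1 array.

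The V-ATPase subunits differed from each other. ATP6V0A1, the a1 subunit of the membrane sector, which carries the proton path, read 9.79 and 9.74 with control siRNA, 10.26 and 10.30 with siH19-1, and 11.49 and 11.36 with siH19-2. The 3 groups did not overlap. ATP6V0A1 rose by 1.66 with siH19-2 (3.16-fold, SE 0.11, adjusted p = 0.00267), the widest rise among the 35 genes. Its change with siH19-1 was 0.52 (1.43-fold, adjusted p = 0.053). ATP6V1A, the catalytic subunit that binds ATP, read 8.16 and 8.20, then 8.95 and 8.76, then 8.73 and 8.37. All siRNA arrays were above the controls, with changes of 0.68 (adjusted p = 0.0635) and 0.37 (adjusted p = 0.148) that did not pass. ATP6V0D1, a subunit that joins the sectors, and ATP6V1H, a regulatory subunit, had changes of -0.22 and -0.09 with siH19-1 and of 0.08 and 0.12 with siH19-2; none passed. The siH19-2 rise of ATP6V0A1 held without each array in turn (highest adjusted p 0.0299). TFE3, the relative of TFEB that was measured, read 5.85 and 5.86, then 6.05 and 6.18, then 6.01 and 6.18. Its siRNA arrays all lay above the controls, but changes of 0.26 and 0.24 did not pass (adjusted p = 0.231 and 0.173).

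Among the receptors that carry cargo to the autophagosome, SQSTM1, also known as p62, rose with each siRNA. It read 7.79 and 7.68 with control siRNA, 8.48 and 8.49 with siH19-1, and 8.24 and 8.49 with siH19-2, all 4 above the controls. The rises were 0.75 (1.68-fold, SE 0.12, adjusted p = 0.03) and 0.63 (1.55-fold, SE 0.12, adjusted p = 0.021). Without any 1 array the siH19-1 call was lost (0.0534 to 0.163), and so was the siH19-2 call (0.0507 to 0.0939). OPTN and NBR1, receptors for damaged organelles and ubiquitinated cargo, did not pass. OPTN changed by 0.34 (95% interval 0.10 to 0.58, adjusted p = 0.107) and 0.11 (-0.13 to 0.35). NBR1 had controls 7.54 and 7.06, the widest spread among these genes, and changes of 0.34 and 0.30 (adjusted p = 0.429 and 0.369).

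In the ATG8 family, MAP1LC3B, the LC3 protein used as the usual mark of autophagosomes, read 8.09 and 8.10 with control siRNA, 7.79 and 7.92 with siH19-1, and 7.41 and 7.23 with siH19-2. All 4 siRNA arrays lay below the controls. MAP1LC3B fell with siH19-2 (-0.78, SE 0.11, adjusted p = 0.00917), while its change with siH19-1 was -0.24 (adjusted p = 0.285). GABARAPL1, another ATG8 protein, moved the opposite way. It read 6.57 and 6.44, then 6.38 and 6.61, then 7.02 and 7.02, with the siH19-1 arrays on either side of the controls and both siH19-2 arrays above them. GABARAPL1 rose by 0.52 with siH19-2 (1.43-fold, SE 0.12, adjusted p = 0.0316). GABARAPL2 changed by 0.08 with siH19-1 and 0.55 with siH19-2, and neither passed (adjusted p = 0.847 and 0.0597). MAP1LC3B lost its siH19-2 call without the second siH19-2 array (0.0542), and GABARAPL1 without either control or either siH19-2 array (highest 0.137).

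The conjugation machinery was led by ATG12, the ubiquitin-like protein that joins ATG5 to form the complex that attaches ATG8 proteins to membranes. It read 9.67 and 9.48 with control siRNA, 10.98 and 10.70 with siH19-1, and 10.83 and 10.73 with siH19-2. Every siRNA array lay above the controls, and the siRNA groups overlapped each other. ATG12 rose by 1.27 with siH19-1 (2.40-fold, SE 0.14, adjusted p = 0.0135) and by 1.21 with siH19-2 (2.31-fold, SE 0.14, adjusted p = 0.00578). Its partners did not pass. ATG5 changed by 0.19 and 0.30 (adjusted p = 0.477 and 0.159), ATG3 by 0.26 and 0.23 (0.272 and 0.219), and ATG7 by 0.01 and -0.02 (0.988 and 0.942). ATG16L1, which places the complex on the membrane, read 7.35 and 7.18, then 7.41 and 7.24, then 6.91 and 6.69. Its siH19-2 arrays lay below the controls, with a change of -0.47 that did not pass (adjusted p = 0.0567); with siH19-1 it was 0.06. The siH19-2 rise of ATG12 held without each array (highest adjusted p 0.0492). The siH19-1 rise was lost without the first control or either siH19-1 array (highest 0.101).

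In the initiation and lipid kinase group, BECN1, the Beclin 1 core subunit of the lipid kinase complex, read 10.18 and 10.04 with control siRNA, 9.70 and 9.56 with siH19-1, and 8.83 and 8.78 with siH19-2. The 3 groups did not overlap. BECN1 fell with siH19-2 (-1.31, a 2.47-fold fall, SE 0.12, adjusted p = 0.00347), the widest fall among the 35 genes. With siH19-1 its change was -0.48 (adjusted p = 0.0738). UVRAG, which binds Beclin 1, and ULK1, the kinase that starts autophagy, had changes within 0.15 of 0 with either siRNA. WIPI1, which binds the lipid product, read 7.47 and 7.45, then 7.76 and 7.98, then 7.62 and 8.02. All siRNA arrays were above the controls, and its changes of 0.41 and 0.36 did not pass (adjusted p = 0.215 and 0.177). The siH19-2 fall of BECN1 held without each array (highest adjusted p 0.0357). BECN1, GRN, NBR1, ATP6V0A1 and WIPI1 are the 5 measured members on chromosome 17.

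For the mean of both siRNAs the rises were ATG12 by 1.24 (SE 0.13, adjusted p = 0.00723), ATP6V0A1 by 1.09 (SE 0.09, 0.00569), LAMP2 by 1.00 (SE 0.10, 0.00723), SQSTM1 by 0.69 (SE 0.11, 0.0168) and CD63 by 0.68 (SE 0.09, 0.0118). BECN1 fell (-0.89, SE 0.10, adjusted p = 0.00841), as did CTSZ (-0.62, SE 0.08, 0.00987), MAP1LC3B (-0.51, SE 0.10, 0.0284) and MCOLN1 (-0.45, SE 0.08, 0.0273). Just outside were CTSC (adjusted p = 0.0525), GRN (0.0578), ATP6V1A (0.059) and PSAP (0.0753). ATG12, ATP6V0A1, LAMP2 and BECN1 passed without each array in turn. CTSZ was lost without the first control array (0.0531). CD63 was lost without the first control or either siH19-1 array (highest 0.0616), and SQSTM1 without either control or either siH19-1 array (highest 0.0658). MCOLN1 and MAP1LC3B were lost without any 1 array (highest 0.107 and 0.104). For siH19-1 against control, no cluster of the whole table passed once either siH19-1 array was left out.

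Some calls also ended under other processing. Scaling on the AFFX and ERCC control rows ended the siH19-1 calls of LAMP2, CD63, SQSTM1 and GLA and the siH19-2 calls of CTSA, CTSD, CTSZ, HEXA, PSAP, CD63, MCOLN1, SQSTM1 and GABARAPL1. With no filter on low signals, the siH19-1 calls of CD63, SQSTM1 and GLA and the siH19-2 calls of CTSD, HEXA, MCOLN1, SQSTM1 and GABARAPL1 were lost. Median centring ended those of CD63 and GLA with siH19-1 and of CTSD and GABARAPL1 with siH19-2. Scaling to the rows that are not transcript clusters ended those of CD63 and GLA with siH19-1 and of CTSZ and MCOLN1 with siH19-2. ATG12 and CTSZ with siH19-1, and ATG12, LAMP2, ATP6V0A1, BECN1, MAP1LC3B and GRN with siH19-2, kept their calls under all of these settings. Other settings added calls. With siH19-1, quantile normalization added ATP6V0A1, ATP6V1A and BECN1, a filter at log2 6 added ATP6V0A1 and ATP6V1A, and scaling to the rows that are not transcript clusters added BECN1. With siH19-2, the filter at 6 added CTSC, GABARAPL2 and ATG16L1, quantile normalization added GABARAPL2 and ATG16L1, and that scaling added GABARAPL2. For the mean of both siRNAs, quantile normalization added CTSA, PSAP, GRN and ATP6V1A, and the filter at 6 added CTSC, GRN and ATP6V1A.

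The direct comparison of siH19-2 with siH19-1, which uses no control array in its contrast, asks where the responses differ. Of 35 genes, 6 were higher with siH19-2 and 5 lower (17.1% and 14.3%), against 9.76% and 8.42% of all clusters. The median difference was -0.02, against 0.06 over all clusters. Higher were ATP6V0A1 by 1.15 (2.21-fold, adjusted p = 0.00485), CTSA by 0.78 (adjusted p = 0.0228), GRN by 0.70 (0.0442), HEXA by 0.66 (0.0197), PSAP by 0.55 (0.0488) and GABARAPL1 by 0.53 (0.0325). Lower were CTSD (-1.09, adjusted p = 0.00866), BECN1 (-0.83, 0.0098), GLA (-0.62, 0.0129), MAP1LC3B (-0.54, 0.0276) and ATG16L1 (-0.53, 0.0444). In these 11 genes the 2 arrays of one siRNA did not overlap those of the other. The test picked these genes on these same arrays, so the separation adds no support. Genes that were not called, such as CD63 and LAMP1, did not overlap either. Among the genes called with each siRNA, the difference was 0.33 for LAMP2 (95% interval 0.04 to 0.62, adjusted p = 0.115), 0.14 for CD63 (-0.12 to 0.39), -0.12 for SQSTM1 (-0.42 to 0.18), -0.06 for ATG12 (-0.42 to 0.30) and 0.21 for CTSZ (-0.01 to 0.42). None of these passed, and the intervals leave room for unequal changes. Without 1 of the siRNA arrays the count fell from 11 to 1 or 2, and the share of all clusters called fell to between 2.09% and 5.34%. ATG16L1 was also lost without either control array. Median centring ended the calls of PSAP, GRN, GABARAPL1 and ATG16L1, and so did the absence of a filter, which also ended those of CTSA and MAP1LC3B. Scaling to the rows that are not transcript clusters ended those of GLA, MAP1LC3B and ATG16L1, and on the AFFX and ERCC rows ATP6V0A1, CTSD and BECN1 were the 3 left. ATP6V0A1 passed without each of the 6 arrays and in every other alternative tried.

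**Figure D4:**
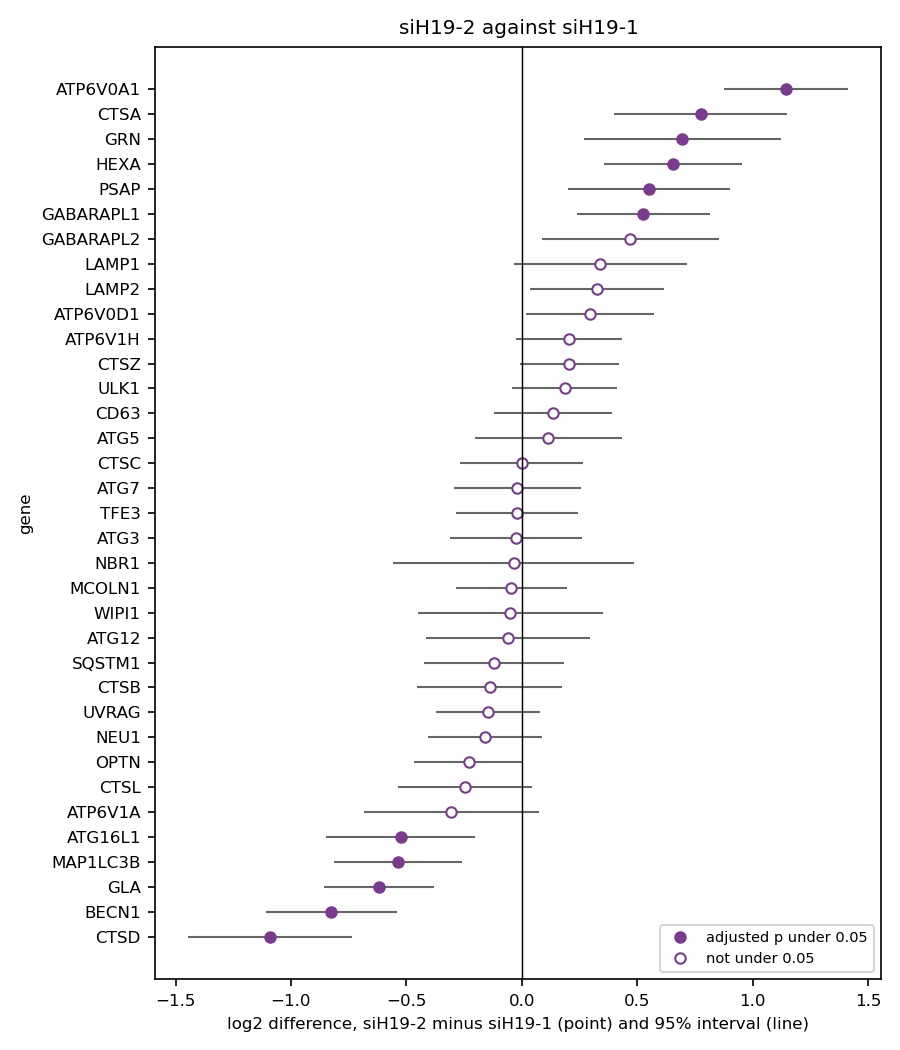
Difference between siH19-2 and siH19-1 in log2 signal (x axis) for 35 genes, with 95% intervals from limma, 2 arrays a group. Filled points passed a limma adjusted p of 0.05: 6 lie right of 0, led by ATP6V0A1, and 5 lie left of 0, with CTSD furthest.

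Other genes of the same pathways were taken from 9 lists, 133 genes in all, of which 105 passed the filter and 100 were at or above 5 on every array. The lists, too, were chosen with earlier results of these data known, so their shares are a description. With siH19-1, 13 of the 105 rose and 2 fell (12.4% and 1.90%), against 2.65% and 3.56% of all clusters. With siH19-2, 22 rose and 9 fell (21.0% and 8.57%), against 10.2% and 10.8%. The gap between the shares that fell rests on few genes with each siRNA and is not read as a result. V-ATPase genes stood at 4 rises of 12 with siH19-1, and at 3 rises and 1 fall with siH19-2. ATP6AP2, an accessory subunit of the pump, read 7.43 and 7.31 with control siRNA, 8.52 and 8.45 with siH19-1, and 9.33 and 8.97 with siH19-2. All siRNA arrays lay above the controls, with rises of 1.12 (adjusted p = 0.0179) and 1.78 (adjusted p = 0.00306). ATP6V1C1, a subunit of the cytosolic sector, rose by 1.06 and 0.61 (adjusted p = 0.0152 and 0.0272), and ATP6V1F fell with siH19-2 (-0.56, adjusted p = 0.0231). ATP6AP1, another accessory subunit, read 8.19 and 7.84 with control siRNA, 8.31 and 8.11 with siH19-1, and 8.89 and 8.70 with siH19-2. Its gap between siH19-2 and control was wider than that of ATP6V1C1. Of 21 lysosomal enzymes and activators, 2 rose with siH19-1 and 6 with siH19-2. In limma 0 fell with either; at an unadjusted p under 0.05, 1 was lower with siH19-1 and 0 with siH19-2. LGMN, the asparagine protease legumain, rose by 0.89 (adjusted p = 0.0147) and 1.16 (0.00375), LIPA, the acid lipase, by 0.45 and 0.49 (0.0471 and 0.0183), and SCPEP1, a serine carboxypeptidase-like protein, by 0.68 with siH19-2 (0.0177). Among 17 membrane and transport genes, 2 rose with siH19-1 and 3 with siH19-2. OSTM1, a partner of a lysosomal chloride exchanger, rose by 1.48 and CD68, a lysosomal glycoprotein that also marks macrophages, by 1.02 with siH19-1 (adjusted p = 0.0124 and 0.0205). SLC38A9, an arginine sensor of the lysosome, rose by 0.72 and LAPTM4A by 0.50 with siH19-2 (0.0111 and 0.0274).

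Of 5 genes that sort enzymes to the lysosome, 2 fell with siH19-2, and with siH19-1 limma called 0, also at an unadjusted p under 0.05. Of all clusters, 10.2% rose and 10.8% fell with siH19-2, and 2.65% and 3.56% with siH19-1. With so few genes a list, these counts are a description. M6PR, a mannose 6-phosphate receptor, read 9.99 and 9.69 with control siRNA, 9.82 and 9.81 with siH19-1, and 8.29 and 8.51 with siH19-2. GNPTAB, which makes the mannose 6-phosphate tag, read 10.12 and 9.84, then 10.09 and 9.97, then 8.55 and 8.68. For both genes the siH19-1 arrays lay within the control range and the siH19-2 arrays below it. They fell by 1.44 and by 1.37 with siH19-2 (adjusted p = 0.00429 and 0.00425), and siH19-2 was lower than siH19-1 by a difference of -1.42 for each (adjusted p = 0.00561 and 0.00501). Of 12 genes of vesicle fusion, 2 rose with siH19-1, and 3 rose and 2 fell with siH19-2. RAB7A, the GTPase of late endosomes, read 16.58 and 16.46, then 16.50 and 16.45, then 14.14 and 14.61; it fell with siH19-2 (-2.15, SE 0.17, adjusted p = 0.00306). Its signal is high on the scale of these arrays, where 394 transcript clusters exceed 16 on at least 1 array and the highest reads 19.93. The deposited values do not show whether its probes were saturated. VPS33A, a subunit of the tethering complex, rose by 1.41 and 0.84 (adjusted p = 0.00839 and 0.0073). VPS11, of the same complex, rose with siH19-1 (0.55, 0.0354), and VPS18 fell with siH19-2 (-0.56, 0.0348). EPG5, a tethering factor, rose with siH19-2 (0.59, 0.042).

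Among 7 receptors, 2 rose with siH19-1 and 3 with siH19-2. The shares of all clusters to set beside this and the next lists are 2.65% risen and 3.56% fallen with siH19-1. With siH19-2 they are 10.2% and 10.8%, which the initiation and mTORC1 counts below do not clearly exceed. TAX1BP1, a ubiquitin-binding receptor, rose with each, by 1.46 and 0.85 (adjusted p = 0.00828 and 0.00755). BNIP3, a receptor for mitochondria, rose with siH19-1 (0.99, 0.0157), and its relative BNIP3L with siH19-2 (1.03, 0.00528). Of 15 initiation genes, 1 rose and 2 fell with siH19-1, while 3 rose and 1 fell with siH19-2. TMEM41B, a lipid scramblase needed for autophagosome growth, rose with each (0.76 and 0.82, adjusted p = 0.0237 and 0.00831). WIPI2 and AMBRA1 fell with siH19-1 (-0.75 and -0.69, adjusted p = 0.0227 and 0.042). ATG13, the partner of ULK1, rose and the kinase ULK2 fell with siH19-2 (0.72 and -0.56, adjusted p = 0.0219 and 0.0355). On the lysosomal platform of the growth kinase mTORC1, 0 of 9 genes passed in limma with siH19-1, also at an unadjusted p under 0.05, while 1 rose and 2 fell with siH19-2: LAMTOR3, a scaffold subunit (0.65, adjusted p = 0.023), RRAGA, a small GTPase of amino acid sensing (-0.81, 0.00717), and FNIP2 (-0.53, 0.026). FNIP2 read below 5 on the siH19-2 arrays and passed the filter through the other groups. ATG4C, a protease that processes ATG8 proteins, was the 1 call against control among 7 other genes of the ATG8 family and its conjugation (-0.35 with siH19-2, adjusted p = 0.0494); at an unadjusted p under 0.05, 2 of the 7 were lower with siH19-1.

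**Figure D5:**
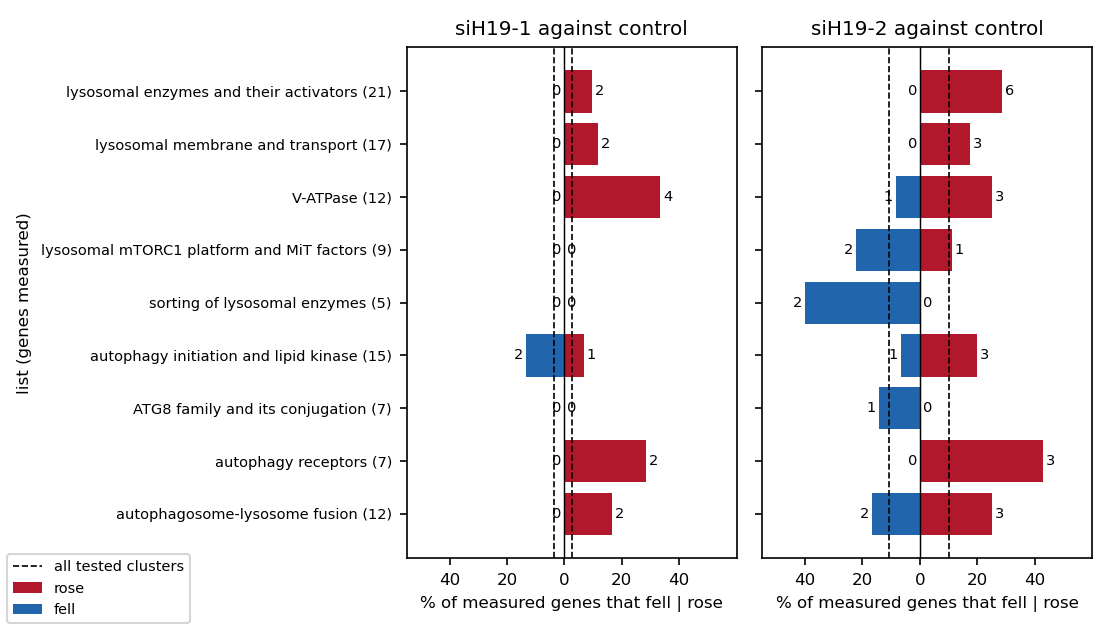
Share of measured genes in each of 9 pathway lists that rose (red, right) or fell (blue, left) with siH19-1 and siH19-2, with the number of genes at the bar ends and the number measured in brackets. Dashed lines mark the share of all 24721 clusters: 2.65% and 3.56% with siH19-1, 10.2% and 10.8% with siH19-2.

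The genes whose promoter windows hold the longer motif had no common direction. Of the 5, MCOLN1 fell with siH19-2, CTSA rose with siH19-2, and ATG3, ATP6V0D1 and LAMP1 passed with neither siRNA. Of the others with the shorter motif alone, CD63 rose with each siRNA, CTSD fell with siH19-2 and NEU1 did not pass. ATG12, ATP6V0A1 and BECN1 had a promoter entry without CACGTG, and LAMP2 had no entry.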

How the data were processed

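RNA from 6 cultures was measured on Affymetrix whole-transcript arrays, 1 array each. The deposited values are log2 signals made by the authors with RMA in Affymetrix Expression Console, per the submitters' processing notes; versions, annotation and genome build are not given in the sources used here. Of 70523 rows, 67528 are transcript clusters, and of these 23781 carry 1 gene symbol, 1543 several and 42204 none in the platform annotation. The other 2995 rows were not tested. Groups came from the sample titles. Clusters with log2 of at least 5 on 2 or more arrays were fitted together with limma 3.58.1 in R 4.3.3 (3 residual and 2.75 prior degrees of freedom, variance trend), with Benjamini-Hochberg adjustment over 24721 clusters and 4 comparisons adjusted separately. The test for the mean of both siRNAs was run on simulated data with independent noise and the same shift with each siRNA. That run does not cover changes with 1 siRNA or deviations shared between arrays. Every measured member is named. Each pathway list gives its counts and up to 2 rises and 2 falls of largest size for each siRNA. A gene named for 1 siRNA may also be given for the other. Members and lists were chosen with earlier results of these data known. Alternatives changed the filter, the normalization, the variance trend, a replicate block and the arrays included. Promoters are from RefSeq (GRCh38.p14). The number of arrays limits the precision.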

Additional observations from a re-analysis of the deposited data

Results flagged for a closer look

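For 11 of 35 genes the change differed between the siRNAs by the direct test of siH19-2 against siH19-1 (limma adjusted p under 0.05, 2 arrays a group, same 48 h and 50 nM). Of all clusters, 9.76% were higher and 8.42% lower with siH19-2 in that test. Most of these 11 calls were lost in some of the alternatives given below. The differences in log2 signal, siH19-2 minus siH19-1, were 1.145 for ATP6V0A1, 0.775 for CTSA, 0.695 for GRN, 0.655 for HEXA, 0.55 for PSAP and 0.525 for GABARAPL1. On the negative side they were -1.09 for CTSD, -0.825 for BECN1, -0.62 for GLA, -0.535 for MAP1LC3B and -0.525 for ATG16L1. ATP6V0A1 and BECN1 had the same sign with each siRNA and the larger size with siH19-2. CTSD and GLA had opposite signs with the siRNAs; CTSD passed against control with siH19-2 and GLA with siH19-1. What makes the siRNAs differ was not tested.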

How the results depend on the processing

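Of the called genes, 4 stayed called in all 16 alternatives for the mean of both siRNAs, 0 for siH19-1, 4 for siH19-2 and 1 for siH19-2 against siH19-1, and no called value changed sign. Scaling on the control rows AFFX and ERCC, chosen after seeing the data, left 5 genes called for the mean (9 otherwise), 2 for siH19-1 (6), 6 for siH19-2 (15) and 3 for the direct comparison (11). With no filter, 3 were called for siH19-1 and 5 for the direct comparison, and with median centring 7 for the latter. The share of all clusters called under changed scaling or filter is not set beside the counts here and below. They therefore do not show whether the members moved more than the whole table. Leaving out 1 array gave 4 to 7, 0 to 3, 5 to 12 and 1 to 11 genes in the same order of comparisons; the share of all clusters called for siH19-1 was 1.04% without the first control array and 0% without either siH19-1 array, while for the direct comparison it was 19.3% and 19.2% without a control array. For the mean and for siH19-2, too, fewer clusters of the whole table were called whichever array was left out. A lost call is therefore not a trait of the member genes alone. The cause of the other shifts was not tested.

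The split of rises to falls moved with scaling. It was 5 to 4 for the mean, 9 to 4 with quantile normalization and 7 to 3 with scaling to rows that are not transcript clusters. For siH19-1 it was 5 to 1, then 3 to 2 with that scaling, and 1 to 1 on the AFFX and ERCC rows. For siH19-2 it was 10 to 5, then 11 to 3 with that scaling. For the direct comparison it was 6 to 5, then 9 to 2 with that scaling, 8 to 4 by row-wise deviations of those rows (also chosen after seeing the data), 3 to 4 with median centring, and 1 to 2 on the AFFX and ERCC rows. Scaling to those rows moved the median of all clusters in the direct comparison from 0.06 to 0.21 and that of the members from -0.02 to 0.13, so the sign of the members' median there depends on it.

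With the replicate block, 13 genes were called for the mean, 9 for siH19-1, 17 for siH19-2 and 12 for the direct comparison. The share of all clusters called with the block is not set beside these counts either. With siH19-1 it added ATP6V0A1, ATP6V1A and BECN1, with siH19-2 GABARAPL2 and ATG16L1, and for the mean CTSA, CTSC, GRN and ATP6V1A. Deviations of same-numbered arrays correlated at 0.286, 0.203 and 0.198 between the pairs of groups, but there are 2 numbers and the labels state no shared day or batch. Having 2 arrays a group limits all of these counts.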
